A study of Mus musculus with 6 samples.

Results

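Wnt ligands, their receptors, secreted and intracellular inhibitors and feedback or target genes were followed in the conjunctival epithelium of mouse embryos, the tissue on the inner side of the lids and over the sclera. The members were 39 genes of the pathway, and each was found through the probes whose annotated gene symbol, current or former, was its name. A probe was found for 38 of the 39 (72 probes in all), and 31 were measured well enough to enter the tests, of 11147 genes tested and 19053 genes with a probe. Tcf7 had no matched probe. Dkk1, Dkk2 and Dkk4, which encode secreted antagonists of Wnt co-receptors, were each detected on the wild-type nasal array alone. Sfrp4, Sfrp5, Notum and Wnt7a were detected on 0 of the 6 arrays. None of these 7 was tested. Lgr6 and Wnt3 were tested on probes detected on 2 arrays only, both labelled knockout, so these probes entered through the group in which they were high.

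The series asked which genes depend on the transcription factor Sox9 in the epithelium from which ocular glands grow. It held 6 Illumina bead arrays, 1 for each genotype in each of 3 parts, nasal, temporal and dorsal, at E14.5. Mice labelled knockout carried floxed Sox9 alleles (Sox9 fx/fx) and the Le-Cre transgene, active in ectoderm over the developing eye, and the others were labelled wild type; all had a mixed FVB and 129 background. The tissue was cut by laser from stained frozen sections, and the design text states 3 embryos per genotype with the cDNA of each region pooled. Each value is therefore 1 array per genotype and region, arrays of a genotype may share embryos, and p-values measure the spread between these arrays rather than between animals.

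Wnt ligands are secreted lipid-modified proteins that bind Frizzled receptors and Lrp co-receptors on the receiving cell. In the canonical branch this stabilises beta-catenin, which joins TCF/LEF factors on DNA and switches on target genes, among them Axin2, Nkd1, Lef1, Sp5, Znrf3 and Rnf43, several of which restrain the pathway in turn. In the developing eye surface Wnt signalling is known for patterning the lids, the conjunctiva and the lacrimal gland bud.

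Detected probes made up 39.8 to 45.6% of each array, with a median of 43 beads per probe. Taken over the regions, Sox9 was no lower on arrays labelled knockout, with log2 values of 10.21, 10.06 and 9.85 in nasal, temporal and dorsal against 8.29, 10.01 and 10.35 in wild type, so arrays are called by their labels. The labelled tissue carried its markers: 11 of 11 measured surface epithelium genes (Krt5, Krt14, Trp63 and others) were detected on every array. The 4 endothelial markers were detected on 0 arrays. Of 6 lens markers Cryaa, Crygd and Crybb1 were detected on 0 arrays, Cryab and Mip on 3 and Prox1 on all. The summed signal of the 3 detected lens genes was 22, 35 and 64 intensity units on the wild-type nasal, temporal and dorsal arrays and 63, 220 and 94 on those labelled knockout. The other marker lists differed between arrays as well. The sum of 12 mesenchyme genes was 1257, 738 and 1364 in wild type and 884, 1054 and 1182 on those labelled knockout. For 4 nerve glia genes it was 172, 752 and 115 in wild type and 336, 51 and 110 on the arrays labelled knockout. For 4 macrophage genes it lay between 14 and 41 on all arrays except the one labelled knockout nasal, at 215. The sum of 5 gland bud genes ran from 687 in wild-type nasal to 1804 in wild-type temporal, and that of 3 epidermis genes from 18 in nasal to 155 in dorsal on the arrays labelled knockout. In such bulk samples fewer cells of a type and less RNA per cell cannot be told apart.

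**Figure D1:**
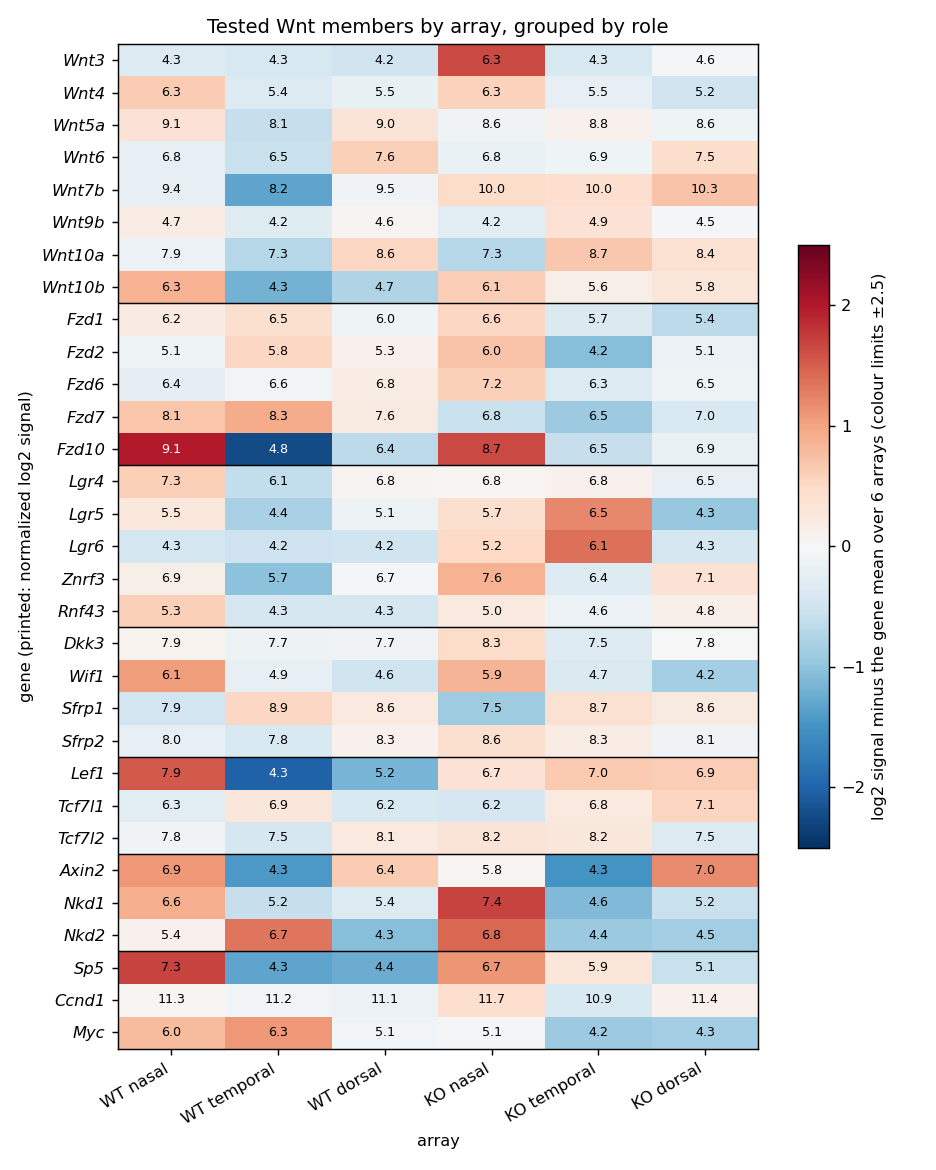
Normalized log2 signal of the 31 tested members (rows, grouped by role) on the 6 arrays (columns). The printed number is the log2 signal and the colour is its distance from the gene's mean over the 6 arrays; the wild-type temporal column holds the lowest value of 14 genes.

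The wild-type temporal array stood out for low values of the members. Their lowest value lay there for 14 of the 31 genes (45.2%), against 13.4% of all genes tested, and on the wild-type nasal array for 0, against 17.1%. The members and lists were chosen with earlier results of these data known. Shares set beside those of all genes, here and below, are therefore descriptive and give no independent support. On the wild-type temporal array 22 of the 31 members were detected, and on the others 26 to 30. Of all probes, taken without the filter for testing, 44.1% were detected on that array and 39.8 to 45.6% on the others. Of the 14 genes, 5 were not detected on the wild-type temporal array, so their order there is not resolved. Among the 18 members detected on all arrays the lowest value still lay there for 9 (50%), against 13.6% of all such genes. The members were highest on an array from the nasal part in 20 of 31 cases, 9 in wild type (29%, against 16.5% of all genes) and 11 on the array labelled knockout (35.5%, against 22.9%). Because the wild-type temporal array enters both the nasal-minus-temporal difference in wild type and the genotype difference in temporal, these 2 sets of values are not independent of each other. That array also had the lowest marker sums of surface epithelium (8477, against 9165 to 10110 on the others) and mesenchyme and the highest of nerve glia and gland bud. The nerve glia and gland bud lists share Sox10, so their sums are not separate observations. Sox10 read 8.36 on that array and 4.18 to 5.87 on the others. The part of the marker lists in the members' values was not tested.

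Nasal and temporal epithelium were compared first, within each genotype. In wild type 12 of the 29 members detected on at least 1 of the 2 arrays were at least 1 log2 unit (2-fold) higher in nasal and 1 was lower by as much. For 11 of the 12 a 2-fold difference was shown; Rnf43 was not detected in temporal and its bound was 1.78-fold. Over all genes 5.45% were higher and 5.47% lower by that measure. On the arrays labelled knockout 8 of 31 members were at least 2-fold higher in nasal and 2 lower, against 11.8% and 12.2% of all genes. These pairs share no array, and 5 members were at least 2-fold higher in nasal in both, namely Fzd10, Axin2, Nkd1, Znrf3 and Wif1. They made up 41.7% of the wild-type list and 62.5% of the other, against 18.4% and 8.73% for all genes. With an offset of 50 or no background correction 1 of the 5, Fzd10, was left. The members' median log2 difference was 0.56 in wild type and 0.46 on the arrays labelled knockout, and that of all genes was -0.03 and -0.01.

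In the fit over all 6 arrays with terms for region and genotype, 26 of the 31 members were higher in nasal than in temporal, with a median log2 difference of 0.50 (-0.01 for all genes). None passed at an adjusted p under 0.05 in limma, and neither did any other gene (0% of 11147). At an unadjusted p under 0.05 in limma there were 9 members, against 7.08% of all genes. They were Fzd10, Nkd1, Axin2, Wif1, Znrf3, Sp5, Wnt4 and Wnt10b, higher in nasal, and Sfrp1, lower in nasal. Leaving out each array in turn gave 22 to 26 members higher in nasal and medians of 0.29 to 0.66. Single fits moved more: with 1 array left out Fzd10 ranged from 2.43 to 4.01, Axin2 from 1.41 to 2.67, Nkd1 from 1.55 to 2.71, Sp5 from 1.03 to 2.78 and Wnt10b from 0.53 to 1.98. The number at least 2-fold higher in wild type depended on the background step, at 12 as reported, 6 with an offset of 50 and 4 with no background correction.

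**Figure D2:**
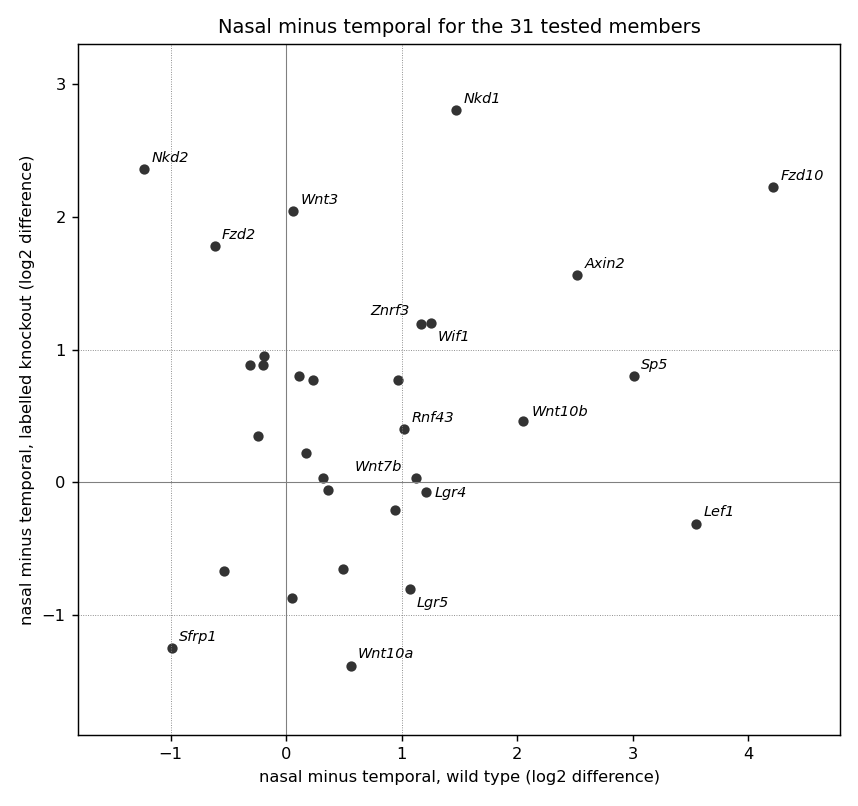
Nasal minus temporal log2 difference of each tested member in wild type (horizontal axis) and on the arrays labelled knockout (vertical axis), 1 array against 1 in each; dotted lines mark 2-fold. Fzd10, Axin2, Nkd1, Znrf3 and Wif1 lie at or beyond 1 on both axes, and Nkd2 lies at -1.23 on one and 2.36 on the other.

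The comparison of genotypes gave smaller sets outside the temporal part. In temporal 8 of 29 members were at least 2-fold higher on the array labelled knockout and 4 lower, against 8.58% and 8.31% of all genes. In nasal 2 of 31 were higher and 3 lower (10.5% and 10.5% of all genes). The higher ones include Lgr6 in temporal and Wnt3 in nasal, whose probes passed the filter through arrays labelled knockout alone. In dorsal 2 of 30 were higher and 0 lower (3.15% and 3.35%). The members' medians were -0.07, 0.46 and -0.11 in nasal, temporal and dorsal, beside -0.04, -0.03 and 0.00 for all genes. With the arrays scaled to a common median in place of quantiles, the median of all genes shifted to 0.17, 0.10 and 0.21. The members then lay 0.00, 0.58 and -0.04 from it, and their counts became 6 higher and 0 lower, 8 and 4, and 4 and 0. Higher calls made up 65.0%, 65.1% and 77.8% of all calls under that scaling and 50.1%, 50.8% and 48.5% as reported.

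In each region at least 1 of the 2 arrays detected 28 of the members. Of these, Wnt7b was higher on every array labelled knockout than on any wild-type array (5.4% of all such genes), and Fzd7 was lower (6.85%). The sign of the genotype difference was the same in all regions for 2 that were higher (Wnt7b and Znrf3; 12.6% of all such genes) and 4 that were lower (Wif1, Sfrp1, Fzd7 and Myc; 14.9%), so neither share of the members was above that of all genes. For Sfrp1 the fitted difference of -0.19 became 0.08 under median scaling. In the fit 20 members were higher and 11 lower on the arrays labelled knockout, with a median of 0.10. None had an adjusted p under 0.05 in limma (0% of all genes), and the lowest was 0.814. At an unadjusted p under 0.05 in limma there were 4 members, namely Fzd7, Myc, Wnt7b and Lgr6, against 5.9% of all genes. The Lgr6 probe passed the filter through arrays labelled knockout alone, so its place among the 4 gives no support.

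**Figure D3:**
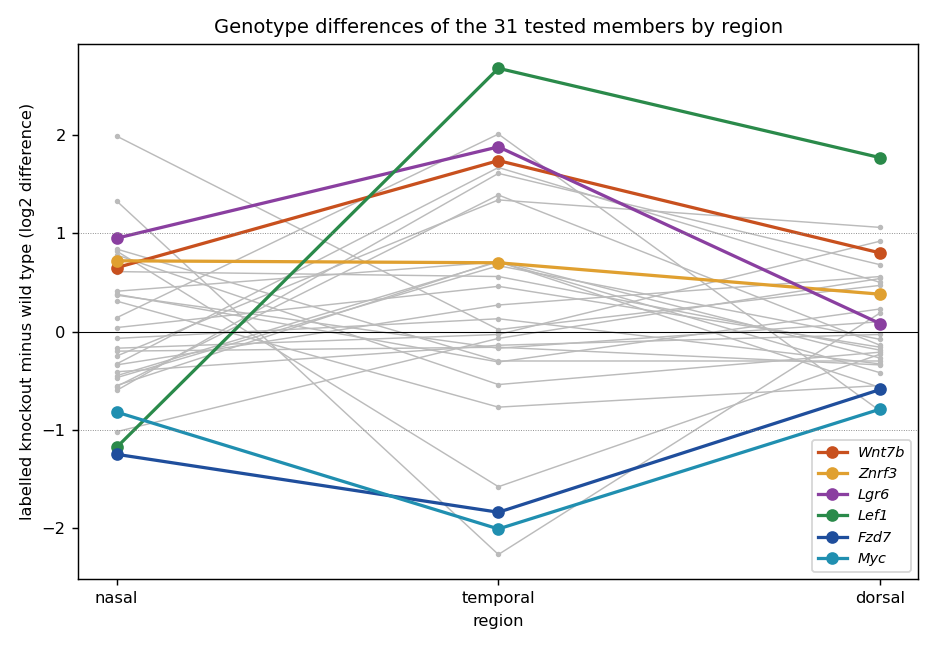
Log2 difference between the array labelled knockout and the wild-type array in nasal, temporal and dorsal epithelium for the 31 tested members, with 6 genes in colour; dotted lines mark 2-fold. Wnt7b and Znrf3 stay above 0 and Fzd7 and Myc below 0 in all regions, and Lef1 runs from -1.18 in nasal to 2.68 in temporal.

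Among the member ligands, 7 of 7 detected in the pair were higher in nasal than in temporal in wild type (48% of all genes), 2 of them by at least 2-fold. In temporal 7 of 7 were higher on the array labelled knockout (48% of all genes), 3 by at least 2-fold. Both counts use the wild-type temporal array. The ligands tested outside the members did not all follow. Wnt2, Wnt5b and Wnt9a gave -1.36, 0.2 and -0.15 for nasal minus temporal in wild type. Their temporal genotype differences were 1.92, -0.41 and -0.22. Wnt7b, a ligand made by surface epithelia, stood at log2 values of 9.37, 8.25 and 9.49 in wild-type nasal, temporal and dorsal epithelium and at 10.02, 9.99 and 10.29 on the arrays labelled knockout. The lowest value was the wild-type temporal one, and the genotypes did not overlap. Means over the regions were 9.03 ± 0.68 in wild type and 10.10 ± 0.17 on the arrays labelled knockout (SD, n = 3 arrays each). Its fitted difference was 1.06 (SE 0.31, adjusted p = 0.814 in limma), with single differences of 0.65, 1.74 and 0.80. The temporal difference was 3.34-fold (bead SE 0.07 log2). Such a bead SE covers measurement on the arrays only. Without either temporal array the fitted difference was 0.73, and with all detected probes averaged it was 0.58, since the other probe for this gene was detected on 2 arrays only.

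Wnt10b, a canonical ligand of skin appendages, read 6.33, 4.28 and 4.71 in wild type and 6.08, 5.62 and 5.77 on the arrays labelled knockout, in the same order of regions. It was not detected in wild-type temporal epithelium, so folds against that array are lower bounds, computed against the dimmest signal detected there. It was at least 3.63-fold higher in wild-type nasal and at least 2.22-fold higher on the temporal array labelled knockout. The fitted nasal-minus-temporal difference was 1.25 (SE 0.46, adjusted p = 0.701 in limma). Averaging the detected Wnt10b probes lowered it to 0.65.

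Wnt10a, the related ligand known for tooth and skin appendages, had values of 7.91, 7.34 and 8.58 in wild type and 7.35, 8.73 and 8.44 on the arrays labelled knockout. The temporal part was thus the lowest of the wild-type regions and the highest of the others. Its temporal genotype difference was 2.62-fold (log2 1.39, bead SE 0.07), against -0.56 in nasal and -0.14 in dorsal. Wnt3, a canonical ligand, was near background in wild type (4.32, 4.26 and 4.17) and read 6.31, 4.28 and 4.64 on the arrays labelled knockout. Only the nasal array labelled knockout stood clear, at least 3.55-fold above wild type, and that array also held the largest macrophage marker sum (215 against 14 to 41), whose part was not tested.

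The remaining member ligands differed by less than 2-fold in each of the 5 pairs on the probes used. Wnt4, needed for kidney and mammary gland development in mouse, was 0.97 and 0.77 higher in nasal in wild type and on the arrays labelled knockout, both log2 differences. Wnt5a, the main ligand of the non-canonical branch, was 0.94 higher in nasal in wild type and -0.21 on the other pair; its genotype difference in dorsal was -0.42, and -1.03 on a second probe. Wnt6 and Wnt9b ranged over 1.16 and 0.67 log2 units across the 6 arrays. A dimmer Wnt6 probe, detected on all arrays, gave 1.09 for nasal minus temporal in wild type and 1.53 for the temporal genotype difference, against 0.36 and 0.46 on the probe used.

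Fzd10, a Frizzled receptor, stood at 9.05, 4.83 and 6.42 in wild-type nasal, temporal and dorsal epithelium and at 8.72, 6.50 and 6.91 on the arrays labelled knockout. Nasal was the highest region and temporal the lowest in both genotypes, and no temporal or dorsal value reached a nasal one. Nasal exceeded temporal 18.64-fold in wild type (log2 4.22, bead SE 0.19) and 4.66-fold on the arrays labelled knockout (2.22, bead SE 0.11). The fit gave 3.22 (SE 0.51, adjusted p = 0.69 in limma). A second Fzd10 probe, also detected on all arrays, gave 1.20 and 0.20 for the same pairs, and the remaining probe was detected on 1 array. With detected probes averaged the wild-type difference was 2.71 and the fit 1.96, so the size rested on the probe.

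Fzd7, a Frizzled of epithelial and stem cells, read 8.07, 8.31 and 7.61 in wild type and 6.82, 6.47 and 7.01 on the arrays labelled knockout. Every value labelled knockout lay below every wild-type value. The SD over the regions was 0.36 in wild type and 0.28 on the arrays labelled knockout (n = 3 arrays each), and the fitted difference was -1.23 (SE 0.32, adjusted p = 0.814 in limma). It was 2.38-fold lower in nasal, 3.58-fold in temporal and 1.51-fold in dorsal, and leaving out each array in turn gave fits of -1.55 to -0.92.

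Fzd2 had values of 5.14, 5.76 and 5.35 in wild type and 5.96, 4.18 and 5.11 on the arrays labelled knockout. It was not detected on the temporal array labelled knockout, which was at least 2.35-fold below wild type and at least 2.70-fold below its own nasal array. Fzd1, and Fzd6, which orients hairs in mouse skin, differed by less than 2-fold in each pair on the probes used; a second Fzd6 probe gave 1.03 for nasal minus temporal on the arrays labelled knockout, against 0.95. On the arrays labelled knockout 5 of 5 member Frizzled genes were higher in nasal than in temporal (49.3% of all genes), and in wild type 1 of 5 was, Fzd10 (48%). Fzd3, Fzd5 and Fzd8, tested outside the members, gave 0.01, 0.41 and 0.29 on the arrays labelled knockout. In wild type they gave -0.22, -1.48 and 0.09.

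**Figure D4:**
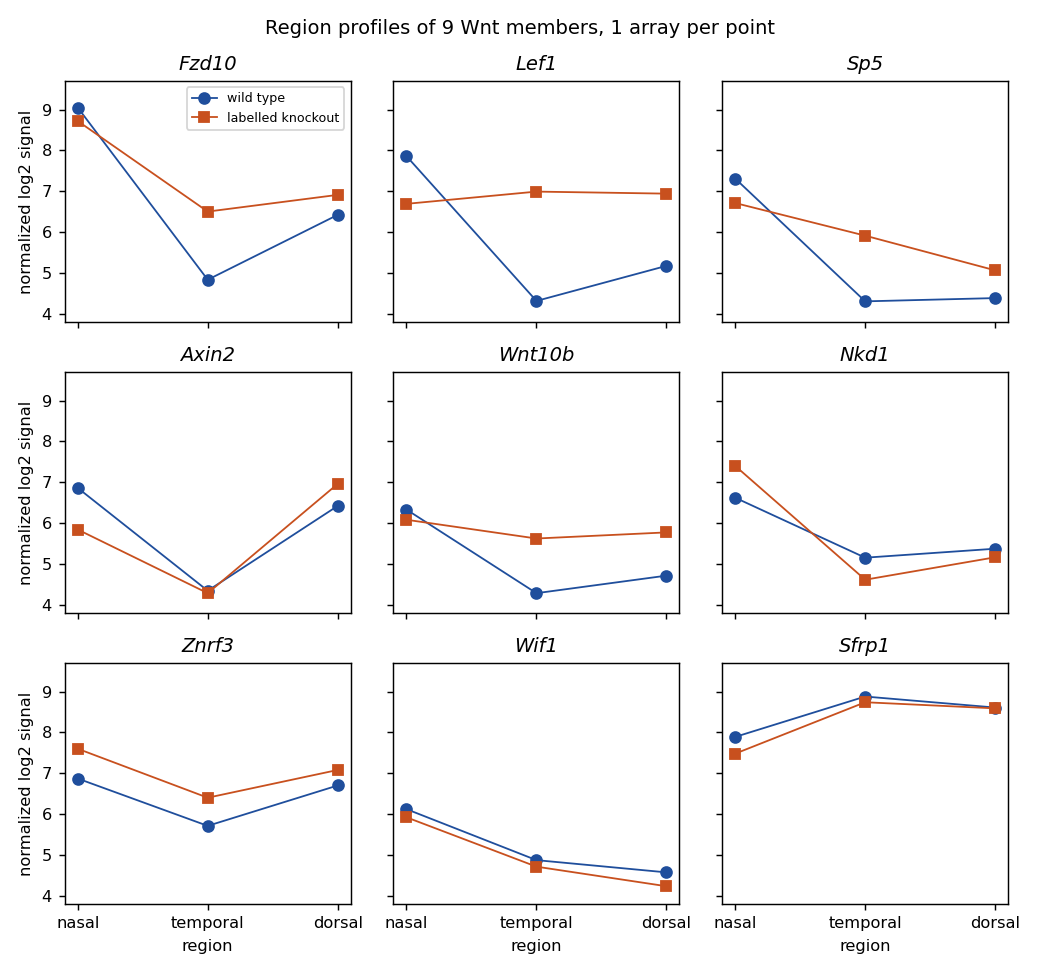
Normalized log2 signal of 9 members in nasal, temporal and dorsal epithelium, with 1 array per point, circles for wild type and squares for arrays labelled knockout. Fzd10, Axin2, Nkd1, Znrf3 and Wif1 are higher in nasal than in temporal in both genotypes, Sfrp1 is lower, and Lef1, Sp5 and Wnt10b differ less between nasal and temporal on the arrays labelled knockout than in wild type.

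The receptors for R-spondin (Lgr4, Lgr5 and Lgr6) and the membrane ubiquitin ligases that they hold in check (Znrf3 and Rnf43) set how much Frizzled stays on the cell surface. In wild type 4 of 4 of these genes detected in the pair were higher in nasal than in temporal (48% of all genes). All 4 were at least 2-fold higher (5.45% of all genes), and for 3 of them a 2-fold difference was shown. On the arrays labelled knockout 1 of 5 was at least 2-fold higher (11.8%). In temporal 5 of 5 were higher on the array labelled knockout (48%), among them Lgr6, whose probe passed the filter through arrays labelled knockout alone. Znrf3, itself a feedback target, read 6.87, 5.71 and 6.70 in wild type and 7.60, 6.40 and 7.08 on the arrays labelled knockout. The order of regions was the same in both genotypes, with temporal lowest, and each value labelled knockout exceeded the wild-type value of its region. Nasal exceeded temporal 2.24-fold and 2.29-fold (fit 1.18, SE 0.30, adjusted p = 0.69 in limma). The genotype difference was 0.60 (SE 0.24, adjusted p = 0.814 in limma).

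Lgr4 stood at 7.31, 6.10 and 6.78 in wild type and at 6.76, 6.82 and 6.51 on the arrays labelled knockout, with nasal 2.31-fold over temporal in wild type and 0.07 log2 units under it on the other pair. Lgr5, a marker of intestinal stem cells in mouse, read 5.51, 4.44 and 5.11 in wild type and 5.65, 6.45 and 4.29 on the arrays labelled knockout. It was at least 3.95-fold higher on the temporal array labelled knockout than in wild type, where it was not detected. Its nasal-minus-temporal sign was opposite in the genotypes, at 1.07 and -0.80. A second Lgr5 probe was detected on the dorsal array labelled knockout alone, where the probe used was not detected. It gave genotype differences of -0.01 in temporal and 0.58 in dorsal, against 2.01 and -0.81 on the probe used.

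Lgr6, a marker of hair follicle stem cells in mouse, was below detection throughout wild type on the probe used (4.27, 4.21 and 4.22). It read 5.22, 6.09 and 4.30 on the arrays labelled knockout. The last of these was not detected either, so the separation in dorsal has no resolved order. It was at least 1.66-fold higher in nasal and at least 3.07-fold in temporal on the arrays labelled knockout, and the fitted difference was 0.97 (SE 0.39, adjusted p = 0.814 in limma), or 0.51 to 1.42 with 1 array left out. A second probe gave 0.91 and 1.66 in these regions. Of the other 2 Lgr6 probes, 1 was detected nowhere and 1 gave -0.10 and 0.46. The latter was detected in wild-type nasal and on the temporal array labelled knockout. Rnf43 had values of 5.31, 4.29 and 4.28 in wild type and 4.96, 4.56 and 4.84 on the arrays labelled knockout. It was at least 1.78-fold higher in wild-type nasal than in temporal, where it was not detected.

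Of the secreted inhibitors, 4 were tested and none differed 2-fold between genotypes in any region on the probe used. Wif1, which binds Wnt ligands outside the cell, read 6.12, 4.87 and 4.57 in wild type and 5.92, 4.71 and 4.23 on the arrays labelled knockout. The genotypes ran in parallel, and both nasal values lay above all others. Nasal exceeded temporal 2.38-fold and 2.30-fold, and the fit gave 1.23 (SE 0.29, adjusted p = 0.69 in limma). Sfrp1, a secreted Frizzled-related inhibitor, ran the other way at 7.89, 8.88 and 8.61 in wild type and 7.48, 8.74 and 8.59 on the arrays labelled knockout. Both nasal values were the lowest, 1.98-fold and 2.38-fold below temporal (fit -1.12, SE 0.30, adjusted p = 0.69 in limma), and its second probe gave -0.80 and -1.52.

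Sfrp2 and Dkk3, a divergent member of the Dickkopf family, ranged over 0.78 and 0.77 log2 units across the arrays on the probes used. The probes for Dkk3 disagreed. A dimmer one, detected on all arrays, read 7.01, 6.54 and 6.69 in wild type and 5.00, 7.90 and 6.11 on the arrays labelled knockout, with genotype differences of -2.01 in nasal and 1.37 in temporal against 0.37 and -0.17 on the probe used. Dkk4, which is itself a Wnt target, was read at 6.06 on the wild-type nasal array (detection p-value 0 to the precision deposited) and between 4.23 and 4.45 on the others. Dkk1 and Dkk2 read 4.54 and 4.81 on the wild-type nasal array, with detection p-values of 0.0363 and 0.0053, and at most 4.34 elsewhere. Each of these 3 antagonists thus had its sole detected value in wild-type nasal epithelium, although those of Dkk1 and Dkk2 lay close to background. The share of all genes detected on that array alone was not counted, so the 3 cannot be set beside it.

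Lef1, which encodes a TCF/LEF factor and is itself a Wnt target, differed between genotypes in opposite directions in nasal and temporal. It read 7.86, 4.31 and 5.17 in wild type and 6.69, 6.99 and 6.94 on the arrays labelled knockout. Wild type ran from the highest value to one below detection in temporal, and the arrays labelled knockout lay within 0.31 of each other in nasal and temporal. Nasal exceeded temporal at least 10.5-fold in wild type. In temporal the array labelled knockout was at least 5.74-fold higher, in dorsal it was 3.40-fold higher (bead SE 0.13 log2) and in nasal it was 2.26-fold lower (bead SE 0.10).

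The 4 probes for Lef1 agreed in sign on the wild-type regional difference and disagreed on the size of the genotype differences. Nasal exceeded temporal in wild type by 3.55, 2.38, 1.30 and 2.20, whereas the temporal genotype difference was 2.68 on the probe used (ILMN_1231087) and 0.00, 0.50 and -0.06 on the others. The probes that gave 0.00 and -0.06 were detected on neither temporal array, so those values resolve no difference. In dorsal the genotype difference was 1.77 on the probe used and 1.04, 1.01 and -0.01 on the others. In nasal it was -1.18 on the probe used and -0.41, -0.05 and -2.08 on the others. With detected probes averaged the temporal difference was 0.78. Tcf7l1, a TCF factor that acts mostly as a repressor, and Tcf7l2 differed by less than 2-fold in each pair on the probes used, while 2 dimmer Tcf7l2 probes gave genotype differences of -1.44 and -1.36 in nasal and a dimmer Tcf7l1 probe, detected on 2 arrays, gave 1.11. The probes used ranged over 0.96 and 0.73 log2 units across the arrays.

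**Figure D5:**
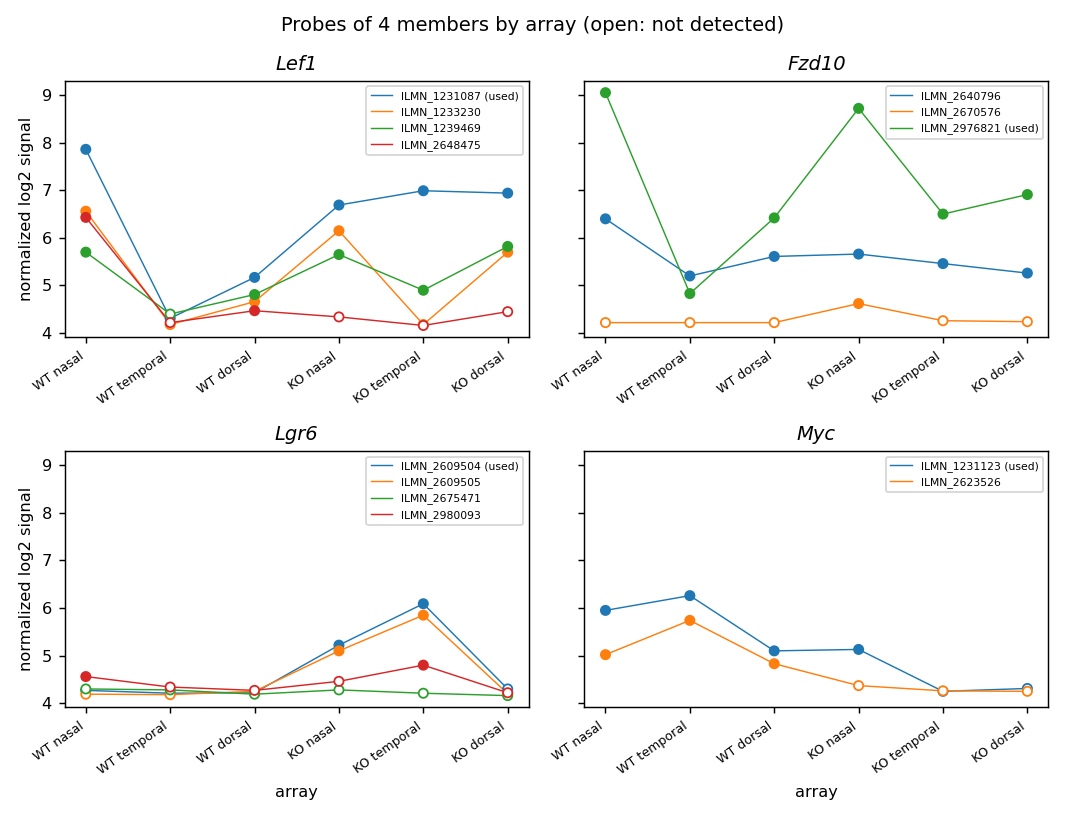
Normalized log2 signal of each probe of Lef1, Fzd10, Lgr6 and Myc on the 6 arrays; filled points were detected and open points were not. Among the wild-type arrays each Lef1 probe is highest in nasal, and the probes differ on the temporal array labelled knockout. The brightest Fzd10 probe spans a wider range than the next.

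Axin2, a scaffold of the complex that degrades beta-catenin and a general readout of the canonical pathway, stood at 6.86, 4.34 and 6.42 in wild type and at 5.84, 4.28 and 6.96 on the arrays labelled knockout. It was detected in nasal and dorsal and not in temporal, in both genotypes. Nasal was at least 5.24-fold and at least 2.48-fold above temporal (fit 2.04, SE 0.44, adjusted p = 0.69 in limma). Between genotypes it was 2.03-fold lower in nasal and 1.45-fold higher in dorsal on the arrays labelled knockout (fit -0.18, SE 0.36).

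Nkd1, a feedback inhibitor that binds Dishevelled, read 6.62, 5.15 and 5.37 in wild type and 7.40, 4.61 and 5.16 on the arrays labelled knockout. Both nasal values lay above all temporal and dorsal ones. Nasal exceeded temporal 2.77-fold in wild type and 6.95-fold on the arrays labelled knockout (fit 2.13, SE 0.41, adjusted p = 0.69 in limma). A dimmer Nkd1 probe, detected on 2 arrays, gave log2 differences of 0.41 and 0.17 for these pairs. With detected probes averaged the fit was 1.21. Nkd2, its relative, read 5.44, 6.67 and 4.27 in wild type and 6.77, 4.40 and 4.46 on the arrays labelled knockout. Its high array was temporal in wild type and nasal among the others, with nasal 2.35-fold below temporal in the first case and at least 4.72-fold above it in the second.

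Sp5, a zinc-finger factor and direct target of the canonical pathway, had values of 7.31, 4.30 and 4.38 in wild type and 6.71, 5.91 and 5.06 on the arrays labelled knockout. In wild type it was detected in nasal alone, at least 7.14-fold above temporal, and among the others it was detected in all regions with nasal 1.74-fold over temporal. In temporal it was at least 2.70-fold higher on the array labelled knockout. The fitted nasal-minus-temporal difference was 1.91 (SE 0.55, adjusted p = 0.69 in limma).

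Promoter windows were searched for the core letters of the TCF/LEF motif, and those of Sp5 and Lef1 are shown, a choice made after their values and matches were seen, because both genes are known direct targets of the pathway. The windows were taken from RefSeq on assembly GRCm38.p6, from 250 bases before to 50 bases after a gene start, and the word was CTTTGA on both strands. That word was present in 16% of the 32851 windows of all genes and in 4 of the 31 windows of members (12.9%), those of Dkk1, Fzd1, Lef1 and Sp5, with windows found for 25 members. This share is no higher than that of all genes. Dkk1, like Sp5 and Lef1, was detected in wild-type nasal and not in wild-type temporal epithelium. Axin2, Wnt10b, Rnf43, Dkk2 and Wnt9b had the same pattern of detection and no match. In the lines below capitals mark the word, or TCAAAG where it lies on the other strand. The Sp5 window lies at chr2:70474673-70474972 (plus strand), with matches starting at -204 and -104 from the gene start. The Lef1 window lies at chr3:131156044-131156343 (plus strand), with matches starting at -180 and -120; it belongs to 1 of 4 annotated starts, and the others held none.
Sp5: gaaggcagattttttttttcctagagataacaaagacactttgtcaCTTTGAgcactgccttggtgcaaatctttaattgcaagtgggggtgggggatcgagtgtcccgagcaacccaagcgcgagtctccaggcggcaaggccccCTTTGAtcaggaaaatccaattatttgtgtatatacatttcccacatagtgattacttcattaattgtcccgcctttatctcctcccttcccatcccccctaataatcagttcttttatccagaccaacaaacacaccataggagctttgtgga
Lef1: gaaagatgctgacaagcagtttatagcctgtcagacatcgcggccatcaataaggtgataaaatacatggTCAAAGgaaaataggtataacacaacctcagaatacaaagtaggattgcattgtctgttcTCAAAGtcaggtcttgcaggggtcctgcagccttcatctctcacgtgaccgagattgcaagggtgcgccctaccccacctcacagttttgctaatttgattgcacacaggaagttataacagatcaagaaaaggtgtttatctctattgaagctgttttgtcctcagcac
A match describes letters only, and no binding was measured.

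Myc, a growth regulator downstream of several pathways including Wnt, read 5.95, 6.26 and 5.10 in wild type and 5.13, 4.25 and 4.31 on the arrays labelled knockout. All wild-type arrays detected it, as did the nasal array alone among the others. On the arrays labelled knockout it was 1.76-fold lower in nasal, at least 3.32-fold lower in temporal and at least 1.57-fold lower in dorsal (fit -1.21, SE 0.33, adjusted p = 0.814 in limma). A second probe gave -0.64, -1.48 and -0.58. With 1 array left out the fit ranged from -1.41 to -0.80. The size depended on the background step, at -0.49 with no correction and -0.63 with an offset of 50. Ccnd1, the cyclin D1 gene, ranged over 0.80 log2 units, and its means were 11.21 ± 0.09 in wild type and 11.31 ± 0.40 on the arrays labelled knockout (SD, n = 3 arrays each).

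Whether the nasal-minus-temporal difference itself depended on genotype was tested with an interaction term, which is the same as asking whether the genotype difference differed between nasal and temporal. It was lower on the arrays labelled knockout for 19 members and higher for 12, with a median of -0.26 (0.00 for all genes). None passed at an adjusted p under 0.05 in limma (0% of all genes). At an unadjusted p under 0.05 in limma there were 7 members, against 9.8% of all genes, namely Lef1, Sp5, Fzd10 and Wnt10a with lower values and Nkd2, Fzd2 and Wnt3 with higher. The Wnt3 probe passed the filter through arrays labelled knockout alone, so its place among the 7 gives no support. Lef1 gave -3.86 (SE 0.79, adjusted p = 0.364 in limma) and Nkd2 gave 3.59 (SE 0.71, adjusted p = 0.364). Of the 8 member ligands 1 was higher and of the 5 member Frizzled genes 4 were, beside 50.2% of all genes.

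Other genes of the pathway were counted from a list of 69, of which 44 were tested. In wild type 8 of 43 (18.6%) were at least 2-fold higher in nasal than in temporal and 3 (6.98%) lower, against 5.45% and 5.47% of all genes. On the arrays labelled knockout 4 of 42 (9.52%) were higher and 3 (7.14%) lower, against 11.8% and 12.2%. In temporal 10 of 43 (23.3%) were at least 2-fold higher on the array labelled knockout and 2 (4.65%) lower, against 8.58% and 8.31%. In nasal 3 of 41 (7.32%) were higher and 3 lower, against 10.5% each way, and in dorsal 2 of 43 (4.65%) were higher and 3 (6.98%) lower, against 3.15% and 3.35%. Their lowest value lay on the wild-type temporal array for 14 of 44 (31.8%, against 13.4% of all genes). None passed in limma. The largest fitted nasal-minus-temporal differences belonged to the ligand Wnt2 (-2.18), to Wls, which carries Wnt ligands to the cell surface (1.79), to the membrane inhibitor Apcdd1 (1.79) and to Kremen2, a Dickkopf receptor (1.40). Each had an adjusted p of at least 0.69 in limma.

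The largest fitted genotype differences among these genes were for the adhesion receptor Cd44 (1.41), Kremen2 (1.08), the co-receptor Lrp5 (0.93) and the transcription factor Jun (0.87), and limma gave all 4 an adjusted p of 0.814. Kremen2 read 9.07, 7.03 and 8.25 in wild type and 9.60, 8.86 and 9.13 on the arrays labelled knockout. Apcdd1 read 8.21, 5.23 and 7.49 in wild type and 7.75, 7.16 and 7.12 on the arrays labelled knockout. For both genes the wild-type temporal value was the lowest of the 6.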

How the data were processed

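Each array measured amplified RNA (15 ng of total RNA) from 10 micrometre sections. Per the file headers, the deposited table gives for each probe an average intensity, its standard error over beads, a count of beads and a detection p-value. The number of negative controls behind that p-value, 936, was inferred from its smallest nonzero value on each array. GenomeStudio is the tool that the submitters' processing notes name, with no version. Deposited intensity values were neither background-subtracted nor normalized. The authors' second table of processed intensity values, made by a normalization not given in the sources used here, ranked the probes of each array like its signals and served as an alternative. Its medians were 4.24 to 4.25. Rows without a probe identifier (1315) were not used.

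Of 45281 probes, 34885 had 1 gene symbol, 18 several and 10378 none; 10 symbols were updated through the NCBI table of GRCm38.p6. Signals were corrected with limma's normexp (version 3.58.1, R 4.3.3, offset 16), quantile-normalized and taken to log2. Probes detected (p under 0.05) on at least 2 arrays were kept, and the brightest stood for its gene. Folds include the offset and so understate the change of dim genes.

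A limma fit used region and genotype (2 residual degrees of freedom), and a second fit added the interaction (1 residual degree). P-values were two-sided with Benjamini-Hochberg adjustment over all 11147 genes. Single pairs of arrays have no test. With 3 arrays a side the smallest p-value of an exact permutation test is 0.1 when region is ignored. Shuffling within regions leaves fewer arrangements and a larger minimum, so no permutation test was run. Precision is limited by the number of arrays. The fits were tested on simulated data. Members given array by array are the 20 with a 2-fold difference in any of 5 pairs, or with 1 sign in all regions and a fitted difference of at least 0.5; of other pathway genes the 4 largest per contrast are named. The members and lists were chosen with earlier results of these data known. The labels' extraction protocol names lens tissue of 1 embryo, whereas the design text, followed here, states pooled embryos.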

Additional observations from a re-analysis of the deposited data

Results flagged for a closer look

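Lef1 differed between regions in its genotype difference. It was -1.18 in nasal and 2.68 in temporal on the log2 scale, 3.86 apart, and the test of that difference gave an adjusted p of 0.364 in limma. It was also -1.18 in nasal and 1.77 in dorsal, 2.94 apart, and that difference was not tested. On 3 of its 4 probes the temporal difference lay between -0.06 and 0.50. Of these, ILMN_1233230 and ILMN_2648475 were detected on neither temporal array, so their differences are not resolved.

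Nkd2 was lower in nasal than in temporal in wild type (-1.23) and higher on the arrays labelled knockout (2.36), 3.59 apart, with an adjusted p of 0.364 in limma. Read as a genotype difference it was 1.33 in nasal and -2.27 in temporal, so that temporal minus nasal came to -3.59, the same contrast with the same adjusted p of 0.364 in limma. Each of these values rests on 1 array per genotype and region.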

How the results depend on the processing

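In every alternative 0 of all genes passed at an adjusted p under 0.05 in limma, in each of the 3 fits. Counts of members at least 2-fold apart moved most. With no background correction they were 0 higher and 0 lower for the genotype difference in nasal, 3 and 2 in temporal and 0 higher in dorsal, and for nasal minus temporal 4 and 0 in wild type and 3 higher on the arrays labelled knockout. An offset of 50 gave 1 and 1 in nasal, 4 higher in temporal, 1 higher in dorsal, 6 and 0 in wild type and 4 higher on the arrays labelled knockout. Median scaling gave 6 and 0 in nasal, 4 higher in dorsal and 2 lower for nasal minus temporal in wild type. Among the 18 members detected on all 6 arrays there were 0 and 1 in nasal, 3 and 1 in temporal, 0 higher in dorsal, 5 and 0 in wild type and 3 higher on the arrays labelled knockout; 9 had their lowest value in wild-type temporal and 15 were higher in nasal in the fit, and fewer genes were tested by construction. Averaging detected probes gave 4 higher in temporal and 0 in dorsal, and the authors' table gave 1 lower in dorsal. Leaving out any of the other 5 arrays in turn, an alternative chosen after seeing the data, gave 14 to 17 members lowest on the wild-type temporal array. Members at least 2-fold higher in nasal in both genotypes, counted under these settings after seeing the data, numbered 5 as reported, 1 with an offset of 50 or no background correction, 3 among those detected on all arrays, 4 with probes averaged and 5 otherwise. Nkd1 was the member lost when probes were averaged.

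Of the 2-fold differences between single arrays, 71 recomputed values moved by over 0.5 log2 units, 196 did not, and none changed sign. Some fitted differences did, most of them small, but also nasal minus temporal of Lef1, at 1.62 in the main fit. Nasal minus temporal became -0.02 for Lgr5 with no background correction and -0.01 with an offset of 50, and -0.01 for Myc with probes averaged. Under median scaling the genotype difference became 0.08 for Sfrp1 and 0.23 for Lgr4, and the interaction 0.12 for Wif1. With each array left out in turn the genotype difference ranged from -0.54 to 0.24 for Axin2, -0.91 to 0.29 for Fzd2, -0.41 to 0.23 for Lgr4, -0.34 to 1.08 for Lgr5, -0.37 to 0.29 for Nkd1, -1.04 to 0.76 for Nkd2, -0.04 to 0.41 for Rnf43 and -0.35 to 0.62 for Wnt10a. Nasal minus temporal ranged from -0.35 to 1.52 for Fzd2, -0.40 to 0.52 for Fzd7, -0.08 to 3.32 for Lef1, -1.04 to 1.31 for Lgr5, -1.09 to 0.27 for Lgr6, -0.32 to 0.89 for Myc, -0.95 to 2.08 for Nkd2 and -1.28 to 0.46 for Wnt10a. The causes were not tested. The interaction was not refitted with an array left out, which leaves no residual degrees of freedom. The labels carry no replicate numbers, so no replicate block was fitted; the region term of the fit pairs the arrays of each region.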
